A study of Mus musculus with 6 samples.

Results

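Expression of 10 genes of the condensin, cohesin and SMC5/6 complexes was compared between haematopoietic stem cells from mice that lack Hlf and from wild-type littermates. The genes were taken by symbol from 23574 measured features, and they are Smc2, Smc4, Ncapd2, Ncapg and Ncaph (5 condensin genes), Smc1a, Smc3 and Rad21 (3 cohesin genes), and Smc5 and Smc6 (2 genes of the SMC5/6 complex). The groups were HLF KO and wild type (WT), both on the C57BL/6 strain, with 3 libraries each. Every library came from 3000 cells, sorted without culture as cells that lack lineage markers, CD34 and Flt3 and carry Sca-1 and c-Kit. The sources used here give neither the age and sex of the animals, nor the deleted part of Hlf, nor whether each library came from its own animal. P-values therefore reflect how these libraries vary, and part of that may be technical. HLF belongs to the PAR bZIP transcription factors, and the question asked of these cells was how its loss bears on stem cell quiescence.

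SMC proteins are long ATPases that fold back on themselves into a coiled coil and work in pairs, closed into a ring by a kleisin subunit. Condensin compacts chromosomes for mitosis, cohesin holds sister chromatids together and folds interphase chromatin into loops, and the SMC5/6 complex acts in DNA repair and replication. Most adult haematopoietic stem cells rest outside the cell cycle, and condensin I genes are among those known to be more strongly expressed in cycling cells.

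The HLF KO libraries held 10182464 to 11998296 counts and the WT libraries 8346335 to 9902102, so every HLF KO library was deeper. Hlf had 309, 399 and 431 counts in HLF KO libraries 1, 2 and 3 and 10768, 15982 and 10055 in WT libraries 1, 2 and 3, a log2 fold change of -5.33 (SE 0.26, edgeR adjusted p = 1.91e-06). WT library 1 had the fewest features with a count, 10796, against 11341 to 12331 in the other 5. Xist had 19229 counts in HLF KO library 3 and 16730 in WT library 3, and 15 to 34 counts in the other 4 libraries. The summed level of 10 granulocyte-monocyte markers was 2705 CPM (counts scaled to the library total) in WT library 3, against 76.0 to 219 CPM in HLF KO and 137 to 253 CPM in the other WT libraries. Of the sort markers, Kit had 1 count in all and Ly6a, which encodes Sca-1, had 0, each with several listed transcripts, so the positive gates could not be checked. Cd34, with 2 listed transcripts, had 24 counts in all, so its negative gate could not be checked either. Flt3, which the gate should lack, has 1 listed transcript and stood at 8.92 to 18.7 CPM in HLF KO and 11.2 to 33.1 CPM in WT. Among stem cell genes, Slamf1 overlapped between the genotypes (24.9 to 72.3 CPM in HLF KO, 26.6 to 43.3 CPM in WT), while every HLF KO library lay below every WT library for Procr (11.1 to 31.9 CPM in HLF KO, 40.1 to 93.3 CPM in WT) and Mecom (80.9 to 153 CPM in HLF KO, 168 to 221 CPM in WT). Neither passed edgeR's test, with adjusted p of 0.502 for Procr and 0.62 for Mecom.

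Condensin, cohesin and Smc6 transcripts stood higher on average in HLF KO stem cells for 8 of the 9 genes that could be tested, with Smc1a as the exception, but no single gene passed the test over all genes. In bulk samples of sorted cells, more cells that express a gene and more of its RNA per cell cannot be told apart. The condensin genes had log2 fold changes of 0.51 to 1.42, while the cohesin genes lay between -0.035 and 0.58 and Smc6 at 0.57. By edgeR's quasi-likelihood test, 0 of 9 members had an adjusted p under 0.05, the smallest being 0.462 for Smc4, and over all 10204 tested genes 0.0098% were called. DESeq2 also called 0 of the 9, against 1.26% of genes, but 2 members came nearer to its threshold than to edgeR's. Its adjusted p was 0.064 for Smc4 and 0.085 for Ncaph, and 0.3895 or more for the other tested members. At an unadjusted p under 0.05 by edgeR, 4 members had higher values in HLF KO and 0 had lower ones. Among all 10204 tested genes, of any abundance, 268 (2.63%) were higher at that level and 474 were lower. The count of higher members was 1 without HLF KO library 3 and 2 without either HLF KO library 2 or WT library 1. The remaining gene, Smc5, was not tested: its 3 listed transcripts held 15 counts over the 6 libraries, and genes with several listed transcripts have low counts in these files as a class, so this says nothing of its expression.

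The libraries of the genotypes did not overlap for 4 of the 9 tested members, namely Smc2, Smc4, Ncaph and Rad21, and each of them was higher in HLF KO. Among all tested genes 7.52% were higher in every HLF KO library than in every WT library, and among genes at least as abundant as the least abundant tested member 8.57% were. Positive log2 fold changes, seen for 8 of 9 members, made up 47.2% of all tested genes and 48.7% of the genes of that abundance. The median log2 fold change was 0.58 over the 9 members and -0.05 over all tested genes. The members were not drawn independently of earlier results on these libraries, so these shares describe the list and do not test it.

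**Figure D1:**
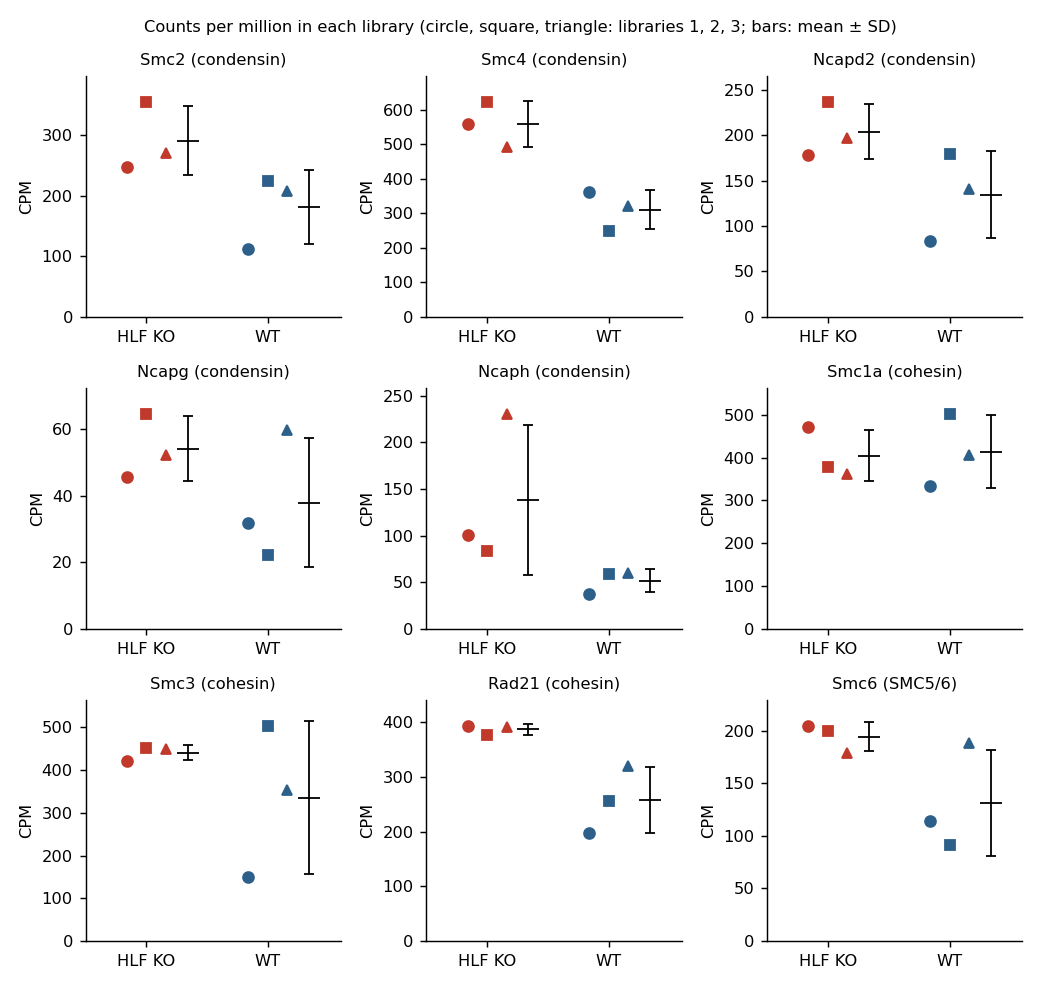
Level of each tested gene in each library, in CPM, which scales counts to the library total (linear axis from 0), HLF KO in red and WT in blue, with the mean and SD of 3 libraries. Smc4 lies between 491 and 624 CPM in HLF KO and between 249.5 and 361 CPM in WT, while for Smc1a the groups interleave.

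The 2 SMC subunits of condensin were higher in every HLF KO library than in every WT library, though neither passed the adjusted test. Smc4, an ATPase subunit of both condensin I and II, had 559.6, 624 and 491 CPM in HLF KO libraries 1, 2 and 3, against 361, 249.5 and 320.1 CPM in WT libraries 1, 2 and 3. The lowest HLF KO library thus lay above the highest WT library. The means were 558 ± 66.2 CPM in HLF KO and 310.2 ± 56.4 CPM in WT (SD, n = 3 each), and the log2 fold change was 0.85 (SE 0.22, edgeR unadjusted p = 0.0024, adjusted p = 0.462). It kept an unadjusted p under 0.05 in each of the 6 fits that left out a library, with values of 0.72 to 0.99.

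Its partner Smc2 had 247, 355 and 269.9 CPM in HLF KO, against 112, 224 and 208 CPM in WT. The groups did not overlap, and WT library 1 was the lowest by a wide margin. This gave a log2 fold change of 0.68 (SE 0.30, edgeR unadjusted p = 0.0418, adjusted p = 0.675), and 0.44 without WT library 1. The unadjusted p of Smc2 was above 0.05 without HLF KO library 2 (0.159), HLF KO library 3 (0.0624) or WT library 1 (0.0963).

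Ncaph, the kleisin that closes the condensin I ring, had 101, 83.2 and 231 CPM in HLF KO, against 37.1, 58.6 and 59.7 CPM in WT. Every HLF KO library was higher than every WT library, but HLF KO library 3 stood apart from the other two of its genotype. Its log2 fold change, 1.42, was the highest of the 9 tested members (SE 0.44, edgeR unadjusted p = 0.0075, adjusted p = 0.487), and it was 0.84 without HLF KO library 3 (edgeR unadjusted p = 0.0994).

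Ncapd2 and Ncapg are the HEAT-repeat subunits of condensin I, which bind the kleisin and contact DNA. Ncapd2 had 178, 237 and 197 CPM in HLF KO, against 83.5, 179 and 141 CPM in WT. Here WT library 2 reached just above HLF KO library 1, and WT library 1 was again low. Ncapd2 stood at 0.60 on the log2 scale (SE 0.32, edgeR adjusted p = 0.704), and at 0.36 without WT library 1.

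Ncapg, the least abundant tested member, had 45.5, 64.6 and 52.3 CPM in HLF KO, against 31.8, 22.3 and 59.6 CPM in WT. WT library 3 lay inside the HLF KO range and the other WT libraries below it. Its difference on the log2 scale was 0.51 (SE 0.49, edgeR adjusted p = 0.843), with 1.00 when WT library 3 was left out and 0.25 when WT library 2 was.

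The sequences before the start sites of condensin genes are shown because cell cycle genes share known elements there. They are RefSeq promoters of GRCm38.p6, in which 8 of the 10 genes have an entry (Smc4 and Rad21 have none). In human and mouse cells, the MuvB-containing complexes that repress cell cycle genes in resting cells bind the CHR element, searched here as TTTGAA and TTCGAA. NF-Y binds CCAAT, and E2F factors bind sites such as TTTGGCGC and TTTCCCGC, while PAR bZIP factors bind TTACGTAA. Each stretch is written on the strand of its gene, 5′ to 3′, with capitals for these motifs on either strand, so that TTCAAA and ATTGG are TTTGAA and CCAAT read on the other strand. Smc1a is added as the tested member with no positive value.
Smc2, chr4:52439061-52439120, + strand: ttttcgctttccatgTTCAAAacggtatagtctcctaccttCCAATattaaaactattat
Ncapd2, chr6:125191587-125191776, - strand: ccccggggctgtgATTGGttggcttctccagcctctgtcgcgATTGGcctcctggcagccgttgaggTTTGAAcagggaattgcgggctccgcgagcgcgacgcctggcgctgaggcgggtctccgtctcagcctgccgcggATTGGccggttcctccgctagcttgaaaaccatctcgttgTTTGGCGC
Ncapg, chr5:45669845-45669924, + strand: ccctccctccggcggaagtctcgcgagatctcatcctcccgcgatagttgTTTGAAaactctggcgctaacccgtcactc
Ncaph, chr2:127133955-127134034, - strand: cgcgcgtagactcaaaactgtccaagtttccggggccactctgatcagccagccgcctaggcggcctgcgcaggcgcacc
Smc1a, chrX:152016348-152016427, + strand: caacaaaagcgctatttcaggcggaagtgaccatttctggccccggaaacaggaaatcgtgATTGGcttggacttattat

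The stretch of Smc2 runs from 160 to 101 bases before the start site, that of Ncapd2 from 190 bases to 1 base before it, and the others from 80 bases to 1 base before it. The stretches were set per gene, and those of Smc2 and Ncapd2 take in all their matches before the start. A CCAAT match of Ncapg, 176 bases before its start, lies outside its stretch, so the stretches do not compare motif content between genes. Ncapd2 holds 3 CCAAT matches, 1 TTTGAA match and 1 TTTGGCGC match in its window, and Ncapg holds TTTGAA 30 bases before its start. In the full window, from 250 bases before to 50 after the start, TTTGAA was present on either strand in 4 of the 8 member promoters (Smc2, Ncapd2, Ncapg and Smc6), against 17.9% of 32851 promoters of the same length. CCAAT was present in 4 of 8 (Smc2, Ncapd2, Ncapg and Smc1a), against 37.4%. TTCGAA was found in Smc6 only (1.56% of all promoters), TTTGGCGC in Ncapd2 only (0.514%), and TTTCCCGC in Ncapg and Smc1a, after the start site (1.07%). TTACGTAA was found in 0 of 8 and in 0.119% of all promoters, and Ncaph held none of the 6 motifs. Only this exact form was searched and few promoters hold it, so 0 of 8 does not show whether HLF binds these genes. All hits are matches of letters, and none was measured as a bound site.

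Among the cohesin genes, Rad21 was higher in every HLF KO library, while Smc3 and Smc1a overlapped between the genotypes. Rad21, the kleisin that separase cuts at anaphase, had 394, 376 and 391 CPM in HLF KO, against 198, 257 and 319 CPM in WT. The HLF KO libraries were nearly equal and all lay above the WT libraries. Its log2 fold change was 0.58 (SE 0.23, edgeR unadjusted p = 0.0282, adjusted p = 0.637), between 0.44 and 0.77 with any 1 library left out. Its unadjusted p was above 0.05 in 5 of those 6 fits, at 0.05002 to 0.0698, and 0.0092 without WT library 3.

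Smc3, an ATPase subunit of cohesin whose head is acetylated when cohesion is set up, had 421, 453 and 448 CPM in HLF KO, against 149, 504 and 355 CPM in WT. The WT libraries surrounded the HLF KO ones, with WT library 1 far below and WT library 2 above. The log2 fold change of 0.39 (SE 0.35, edgeR adjusted p = 0.825) was 0.05 without WT library 1 and 0.82 without WT library 2.

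Smc1a, the partner of Smc3 in mitotic cells, had 472, 378 and 363 CPM in HLF KO, against 334, 502 and 406 CPM in WT. The groups interleaved, with a log2 fold change of -0.035 (SE 0.23, edgeR adjusted p = 0.984). Its sign turned with upper-quartile scaling (0.032) and when HLF KO library 2, HLF KO library 3, WT library 2, or both Xist-rich libraries were left out, and with any 1 library left out it lay between -0.15 and 0.14.

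In the SMC5/6 complex, Smc6 had 205, 199.7 and 179 CPM in HLF KO, against 114, 91.2 and 188 CPM in WT. WT library 3 lay within the HLF KO range and the other WT libraries well below it. Smc6 had a log2 fold change of 0.57 (SE 0.31, edgeR adjusted p = 0.711), which was 0.92 without WT library 3 and 0.37 without WT library 2.

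**Figure D2:**
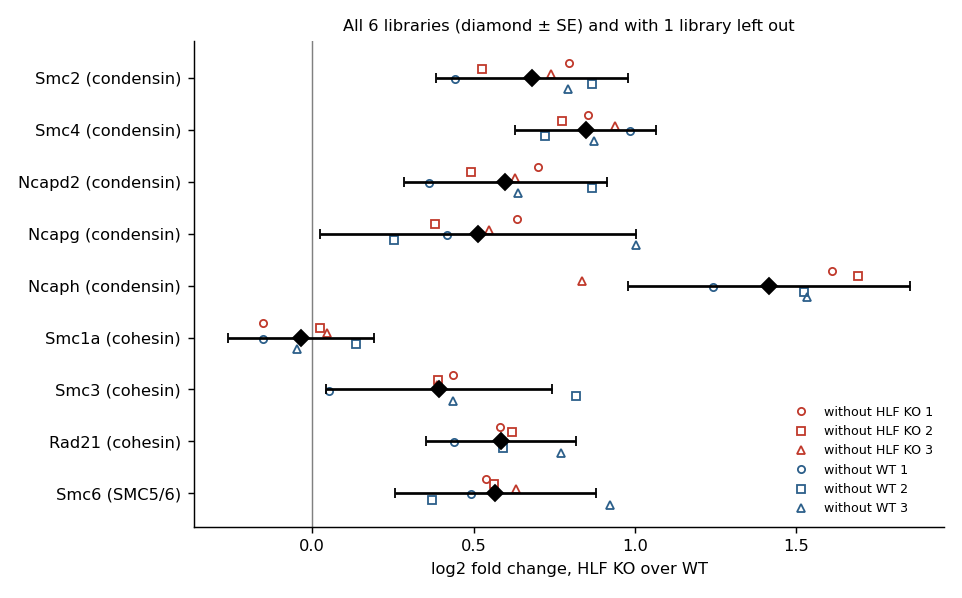
Log2 fold change of each tested gene, HLF KO over WT, by edgeR with all 6 libraries (black diamond, bar = SE) and with 1 library left out (open symbols, red for HLF KO and blue for WT libraries). Smc4 stays between 0.72 and 0.99, whereas Smc3 moves between 0.05 and 0.82 and Ncaph between 0.84 and 1.69.

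The WT libraries were more uneven than the HLF KO libraries for most members. WT library 1 was the lowest of the 6 for 6 of the 9 tested genes and WT library 2 for 3. The coefficient of variation was lower in HLF KO for 8 of 9, as it was for 71.0% of genes of at least that abundance. It was 2.47% in HLF KO and 23.6% in WT for Rad21, and 3.86% in HLF KO and 53.1% in WT for Smc3. Ncaph went the other way, with 58.2% in HLF KO and 24.5% in WT, and HLF KO library 3 was its highest value.

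Levels were compared between genes per kilobase of transcript. In HLF KO the order was Smc4 at 129 ± 15.3 CPM per kb (SD, n = 3), Rad21 at 97.8 ± 2.42, Smc3 at 90.9 ± 3.51, Smc1a at 86.2 ± 12.6, Smc2 at 54.6 ± 10.7, Ncaph at 51.3 ± 29.9, Ncapd2 at 44.1 ± 6.49, Smc6 at 34.7 ± 2.47 and Ncapg at 14.6 ± 2.62. Among neighbours in this order, the library ranges overlapped for Smc3 with Smc1a, Smc2 with Ncaph, and Ncaph with Ncapd2, and for no other pair. In WT, Smc1a led at 88.3 ± 18.0 CPM per kb (SD, n = 3), followed by Smc4 at 71.9 ± 13.1, Smc3 at 69.2 ± 36.8 and Rad21 at 65.2 ± 15.4, and every neighbour among these 4 overlapped. Smc2 at 34.04 ± 11.3, Ncapd2 at 29.1 ± 10.4, Smc6 at 23.4 ± 9.05, Ncaph at 19.2 ± 4.72 and Ncapg at 10.2 ± 5.24 came after them, also with overlap between neighbours, and the one step without overlap was from Rad21 to Smc2.

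Within the condensin ring Smc2 was below Smc4 per kb in all 6 libraries, whereas Smc1a lay on either side of Smc3. Smc2 stood at 0.36, 0.46 and 0.45 of the level of Smc4 per kb in HLF KO libraries 1, 2 and 3, against 0.25, 0.73 and 0.53 in the WT libraries. Smc1a stood at 1.16, 0.86 and 0.84 of Smc3 in HLF KO, against 2.32, 1.03 and 1.18 in WT, where WT library 1 held the highest ratio. Both ratios overlapped between the genotypes. The mean log2 CPM of the 5 condensin genes minus that of the 3 cohesin genes was -1.40, -1.04 and -0.9998 in HLF KO, against -1.36, -1.93 and -1.49 in WT, so HLF KO library 1 lay inside the WT range.

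**Figure D3:**
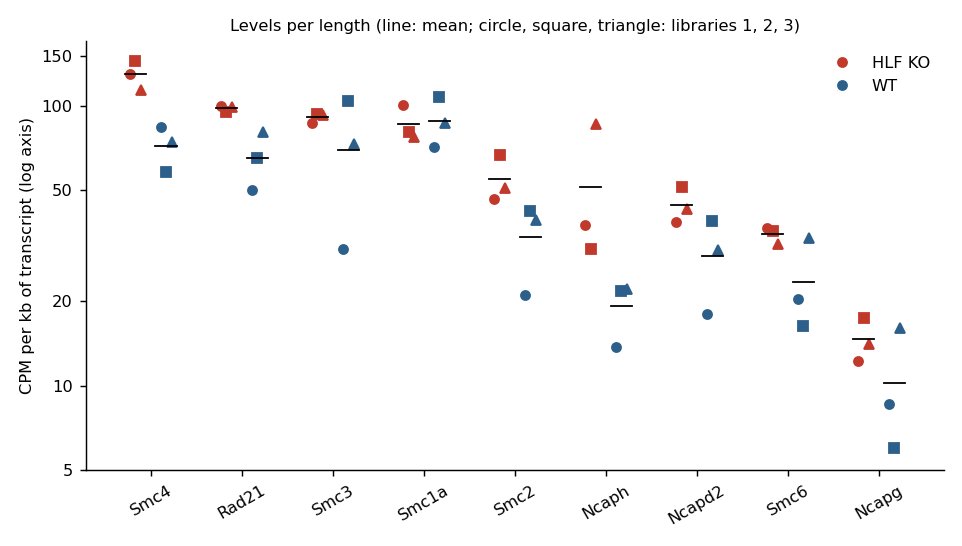
Level of each tested gene per kilobase of transcript in each library (CPM per kb, log axis), HLF KO in red and WT in blue, ordered by the HLF KO mean, with lines at the means. Smc4 leads in HLF KO at 129 CPM per kb, Smc1a leads in WT at 88.3, and Ncapg is lowest in both, at 14.6 in HLF KO and 10.2 in WT.

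Other genes of these pathways were read from 5 lists with 35 genes, of which 31 were tested. None passed edgeR's test over all genes (0 called, and 0 called by DESeq2). At an unadjusted p under 0.05, 2 had higher values in HLF KO, against 2.63% of all tested genes, and 0 lower ones. The median log2 fold change over the 31 was 0.17, with 22 positive and 9 negative, against 47.2% positive among all tested genes. Every HLF KO library lay above every WT library for 3 of the 31, against 7.52% of all tested genes. The reverse held for 2, Hdac8 and Pds5b, the latter at -0.31 (SE 0.21). Among the positive ones were Stag2, Pttg1 and Sgo2a, with 2 listed transcripts each and only 52, 126 and 312 counts in all, so their direction carries little weight.

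The 2 genes higher at an unadjusted p under 0.05 were Kif4 and Top2a, both of the mitotic chromosome scaffold. Kif4, a chromosome-bound kinesin that works with condensin, had 73.7, 133 and 82.9 CPM in HLF KO, against 18.7, 58.0 and 43.5 CPM in WT, with a log2 fold change of 1.27 (SE 0.48, edgeR unadjusted p = 0.0218, adjusted p = 0.62). Top2a, the topoisomerase of dividing cells, had 702, 1088 and 601 CPM in HLF KO, against 343, 565 and 593 CPM in WT, with a log2 fold change of 0.67 (SE 0.28, edgeR unadjusted p = 0.0325, adjusted p = 0.647). The genotypes did not overlap for either, although HLF KO library 3 exceeded WT library 3 by little for Top2a, which stood at 0.40 without HLF KO library 2.

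Both tested condensin II subunits overlapped between the genotypes. Ncapd3 averaged 129.8 ± 20.8 CPM in HLF KO and 126 ± 36.8 CPM in WT (SD, n = 3 each), a log2 fold change of 0.042 (SE 0.31) that was -0.10 without WT library 2 and 0.32 without WT library 1, and Ncapg2 stood at 0.47 (SE 0.38). Ncapg2 moved to 1.00 without WT library 3 and to 0.26 without WT library 1, and whether condensin I and II differ was not tested. Ncaph2, with 4 listed transcripts, had 1 count and was not measured.

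Among 14 cohesin regulators, 13 were tested, 8 positive and 5 negative, with a median of 0.10 and 0 at an unadjusted p under 0.05. Espl1, the separase that cuts Rad21, had the smallest p, with 62.8, 93.0 and 60.6 CPM in HLF KO, against 25.2, 40.0 and 48.4 CPM in WT, a log2 fold change of 0.93 (SE 0.44, edgeR unadjusted p = 0.0556, adjusted p = 0.684). Its HLF KO libraries all lay above the WT ones. Hdac8, the deacetylase that recycles Smc3, had 19.4, 6.41 and 5.97 CPM in HLF KO, against 34.1, 22.5 and 27.5 CPM in WT, a log2 fold change of -1.40 (SE 0.73, edgeR unadjusted p = 0.0811, adjusted p = 0.704). Here the HLF KO libraries all lay below the WT ones, and without HLF KO library 1 the value was -2.17.

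The remaining subunits gave little. Of 6 other cohesin subunits 4 were tested, 2 positive and 2 negative. The 2 of smallest p were the meiotic subunits Rec8 at 0.93 (SE 0.85), which was 0.16 without HLF KO library 3 and 1.58 without WT library 1, and Stag3 at -0.65 (SE 1.62), which was -0.02 without WT library 2 and -1.22 without WT library 1. All 7 SMC5/6 partners were tested, 5 positive and 2 negative, and the 2 of smallest p were Eid3 at -2.87 (SE 1.79), which was -1.05 without WT library 1 and -4.34 without HLF KO library 1, and Slf2 at 0.32 (SE 0.23).

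Values of other cell cycle genes are given beside the members. Of 12 tested mitosis genes 10 were positive, 3 at an unadjusted p under 0.05, and their median log2 fold change was 0.59. The negative ones were Aurka at -0.19 (SE 0.59), with 2594 counts in all, and Birc5, with 2 listed transcripts and 388 counts in all. Cdk1 stood at 0.12 (SE 0.32) and Aurkb at 0.033 (SE 0.38). Of 8 tested S-phase genes 8 were positive, 4 with an unadjusted p under 0.05, with a median of 0.49. Bub1b, of the spindle checkpoint, stood at 1.18 (SE 0.32) and the spindle motor Kif11 at 0.81 (SE 0.23), with the helicase subunits Mcm3 at 0.95 (SE 0.26) and Mcm5 at 0.84 (SE 0.24), and each of the 4 had an edgeR adjusted p of 0.466. Their part in the members' values was not tested.

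**Figure D4:**
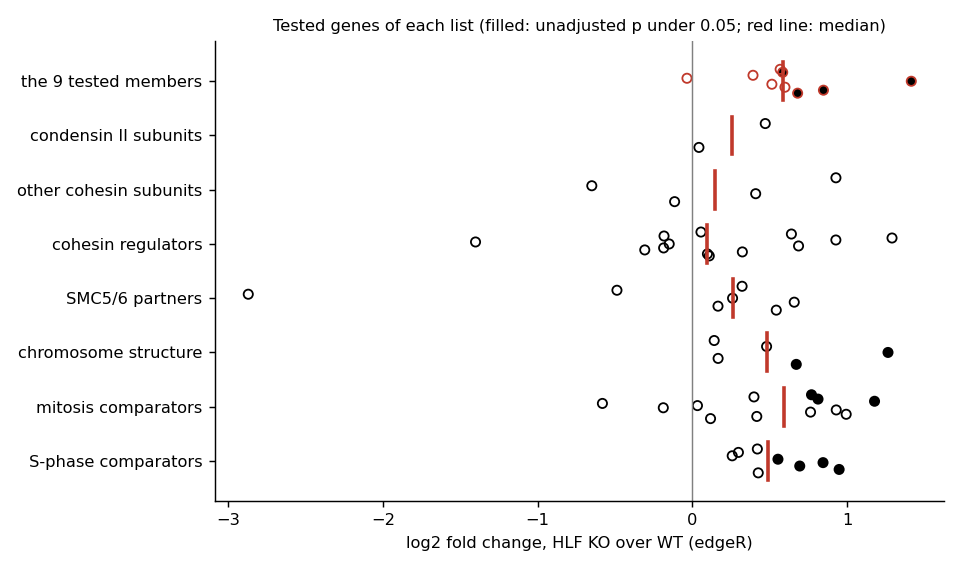
Log2 fold change, HLF KO over WT, of every tested gene in each list (points, filled where the unadjusted p is under 0.05), with the median as a red line. The medians of the 9 members (0.58), the mitosis genes (0.59) and the S-phase genes (0.49) lie close together, and that of the cohesin regulators is 0.10.

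Summed marker levels did not overlap between the genotypes for 3 of 5 other lineages (megakaryocyte, T and NK, and B) and overlapped for the erythroid and granulocyte-monocyte lists. The summed level of 6 megakaryocyte markers was 711 to 918 CPM in HLF KO and 309 to 503 CPM in WT, with 5 of 6 detected in every library. That of 5 T and NK markers was 329 to 619 CPM in HLF KO and 116 to 216 CPM in WT, with 3 of 5 detected in every library and Cd8a at 0. Most of that sum was Nkg7 (2777, 3162 and 5344 counts in HLF KO, 561, 1503 and 878 in WT). The T-cell genes Cd3e and Cd3g went opposite ways. Cd3e had 221, 204 and 245 counts in HLF KO and 656, 456 and 25 in WT, a log2 fold change of -1.14 (SE 0.87). Cd3g, with few counts, had 14, 66 and 52 in HLF KO and 0, 0 and 6 in WT. Ccl5 was higher in every HLF KO library, at 2.39 (SE 0.54, edgeR adjusted p = 0.429). Of the 4 tested T and NK markers 3 were positive and 1 negative. The 6 erythroid markers summed to 193 to 240.5 CPM in HLF KO and 173 to 203 CPM in WT, with Hba-a1 at 0. Although the granulocyte-monocyte sums overlapped, all 8 tested markers of that list were negative, with a median of -3.46. Of these, 3 had an unadjusted p under 0.05 by edgeR, and 0 were called by edgeR and 1 by DESeq2. Only Prtn3 was lower in every HLF KO library, with 25, 120 and 35 counts against 960, 680 and 3312 in WT. On the log2 scale edgeR placed Prtn3 at -5.07, with an adjusted p of 0.191. The 8 B lineage markers summed to 34.01 to 53.4 CPM in HLF KO and 83.6 to 146 CPM in WT, with 1 of 8 detected in every library. That gene, Cd79b, made up most of each HLF KO sum and overlapped (574, 336 and 318 counts in HLF KO, 308, 175 and 533 in WT). Vpreb1 did not overlap, with 0, 1 and 0 counts in HLF KO and 58, 265 and 80 in WT. On the log2 scale edgeR placed Vpreb1 at -8.40, with an adjusted p of 0.371. All 4 tested B lineage markers were negative, with 0 called by edgeR and 1 by DESeq2. Vpreb3 and Cd79a differed between the WT libraries, with Vpreb3 at 285, 303 and 22 counts and Cd79a at 4, 13 and 478. Without WT library 3, which had the high granulocyte-monocyte level, 8 of 9 members were positive, with a median of 0.79. That was the highest median with 1 library left out, and the lowest was 0.44, without WT library 1. The part of these lineages in the values of the condensin and cohesin genes was not tested.

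The 5 genes whose log2 CPM followed the mean of the condensin genes most closely over the 6 libraries were Mob3b (Pearson's r 0.995), Ubr1 (0.991), the mitotic kinesin gene Kif18a (0.988), Eapp (0.986) and the erythroid-megakaryocytic factor gene Gata1 (0.985). They were ranked among the 6602 genes whose log2 CPM averaged 4 or more, of which 2.32% had an r over 0.9, and these likenesses are a description over 6 libraries that also differ in genotype and depth. Gata1 is 1 of the 6 erythroid markers above. Within the list, Smc2 and Ncapd2 had an r of 0.986 and Ncapg and Smc6 0.938, while Ncapg and Smc1a had the lowest r, -0.383, over the same 6 libraries.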

How the data were processed

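For 6 libraries of 3000 sorted cells, the authors deposited unnormalised counts, in whole numbers, of each RefSeq transcript. TopHat and mouse build mm9 are named per the submitters' processing notes, which give no TopHat version, counting tool, strand use or handling of shared reads in the sources used here. The 30858 transcripts were summed to 23574 features with symbols from RefSeq (GRCm38.p6, 30363 transcripts) and GENCODE M21 (179), and 316 kept their accession; 0 columns were left unmatched. Genes with 3 or more listed transcripts had a median summed count of 2, and genes with 1 had 79.

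Genes were tested with edgeR 4.0.16 in R 4.3.3 (TMM factors, filterByExpr with minimum count 10 and minimum total 15, robust quasi-likelihood F test of HLF KO against WT, no covariates). P-values were adjusted by Benjamini-Hochberg over 10204 genes, with a threshold of 0.05. CPM are counts over the TMM-scaled library total, and log2 CPM add a prior count of 2. Standard errors come from the F statistic. Levels per kb use GENCODE M21 transcript lengths, which may differ from the annotation counted by the authors. The code was tested on simulated data. Alternatives were DESeq2 1.42.0, limma-voom 3.58.1, other scalings and filters, thinning, a replicate block, and leaving out libraries.

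The member genes and lists were chosen with earlier results of these data known. All members are named, with Hlf, Xist, the pathway genes with an unadjusted p under 0.05 or else the 2 of smallest p per list, 2 genes per cell cycle list, and the 5 genes most like the condensin mean; other names were chosen after their values were seen.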

Additional observations from a re-analysis of the deposited data

How the results depend on the processing

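The median log2 fold change of the tested members stayed positive under every alternative run, at 0.57 to 0.85 with all other choices and 0.44 to 0.79 with 1 library left out. Members called numbered 0 in every fit, with 0 in each that left out a library. Positive members numbered 8 or 9 throughout. Those higher at an unadjusted p under 0.05 numbered 1 to 5 with 1 library left out and 3 or 4 otherwise. Genes called over the whole table numbered 1 by edgeR, 120 by DESeq2 (22 higher and 98 lower), 9 without a filter on low counts, 2 with the replicate block and 1 to 3 with 1 library left out (3 without WT library 1, 2 without WT library 2); the cause was not tested. Of 144 values of single members under alternatives, 139 kept their direction and 5, all of Smc1a, turned. Smc1a stood at 0.032 with upper-quartile factors, 0.027 without both Xist-rich libraries, and between -0.15 and 0.14 with 1 library left out (0.025 without HLF KO library 2, 0.045 without HLF KO library 3 and 0.14 without WT library 2). Equal library numbers did not deviate together (r of -0.01, -0.022 and 0.02 for libraries 1, 2 and 3), and the labels do not say what a number shares, so they were not taken as pairs; both libraries numbered 3 are Xist-rich. With the replicate block the members' median was 0.64 with 0 called. Smc5 entered only the fit without a filter, and its 15 counts allow no comparison.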
